A study of Homo sapiens with 15 samples.

Results

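The genes of the cytosolic ribosomal proteins were described by the 3′-OH termini of DNA that SSiNGLe-P1 mapped in and around them. SSiNGLe-P1 tails the free 3′ ends of DNA strands in crosslinked nuclei and sequences the junctions, so that each mapped position is the last base of a broken strand. P1 is a nuclease that cuts single-stranded DNA. The members were chosen by name in GENCODE 44 lifted to hg19, as protein-coding genes of chromosomes 1 to 22 and X named RPL or RPS with a number, together with RPSA, RPLP0, RPLP1 and RPLP2. The rule took 81 of 20098 protein-coding genes. RPS10-NUDT3, RPL17-C18orf32 and RPL36A-HNRNPH2, which are read-through loci over a member and its neighbour, and RPS19BP1, which encodes a binding partner of RPS19, were kept out of the sums. This left 77 genes, 46 of the large and 31 of the small subunit. Each gene was counted from 500 bp before its start to its end and was set beside 10 other protein-coding genes of like length and GC content, 770 comparison genes in all. The median window was 5832 bp with a GC content of 47.7% in the members and 5788.5 bp with 47.8% in the comparison genes.

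All samples were crosslinked nuclei of K562, an established line of human leukemia cells. The nuclei were left untreated or were digested with 0.01, 0.1, 1 or 10 U of P1, with 3 biological replicates of each amount. The p-values below measure the spread between these samples. The untreated samples carry the ends that the cells and the preparation already had, and the study treats 10 U as an amount at which double-stranded DNA is also cut.

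Ribosomal proteins are made in equal amounts for the assembly of the large and the small ribosomal subunit, and their genes are among the most actively transcribed of growing cells. Most of them are short, start with a run of pyrimidines at the cap site of the mRNA, and many host small nucleolar RNAs in their introns. Loss of a single copy of several of these genes causes Diamond-Blackfan anaemia, a failure of red cell production, and RPS14 lies in the segment of chromosome 5 that is lost in a myelodysplastic syndrome.

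The 15 libraries held 2046116 to 3859475 unique sites on the counted chromosomes, where a site is a position and strand with at least 1 end, and 86.2 to 92.6% of the sites rested on a single end. The members held 20980 site counts over the 15 libraries, between 1047 and 1936 per library. The window of CDKN2A, a gene that K562 cells lack, held 1 site in all 15 libraries, where the density of all genes would give 439. The libraries of 0.1 U and 1 U of replicate 3 stood apart from the other 13 in the exons of the members, as described below. Some results, but not all, are also given without them.

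Ends at a few positions recurred between libraries, and their surroundings are shown first because they are among the most reproducible single positions of the members. Of 20087 distinct positions and strands with an end, 19334 were seen in 1 library only and 10 in 5 or more. The sequences are of the broken strand of hg19, 5′ to 3′, and the capital marks its last base. The position in RPL37A lay at chr2:217369719-217369769 and that in RPS4X at chrX:71484638-71484688, both on the minus strand.
RPL37A: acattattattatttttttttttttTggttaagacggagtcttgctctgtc
RPS4X: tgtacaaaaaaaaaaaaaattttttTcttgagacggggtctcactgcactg
Both ended in a run of T, and both lay beyond the canonical transcript, in introns of longer annotated ones. The position in RPL37A held an end in 14 of 15 libraries, among them all 3 untreated ones, with 53 ends in all. The position in RPS4X held 31 ends in 12 libraries, of which 2 were untreated. These runs were thus seen without P1 as well as with it.

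Over the whole windows, the members carried more sites than genes of like length and GC content in each library. The density, in unique sites per kb and per 1000000 unique sites of the library, was 0.714 ± 0.066 (SD, n = 3) in the untreated samples. With 0.01, 0.1, 1 and 10 U of P1 it was 0.680 ± 0.016, 0.731 ± 0.033, 0.665 ± 0.066 and 0.624 ± 0.044. The comparison genes lay between 0.550 and 0.596 in all 15 libraries. Single libraries of the members lay between 0.585 and 0.769, and the exact 95% Poisson interval of the lowest, 10 U of replicate 1, was 0.552 to 0.619. Such intervals cover counting error only.

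**Figure D1:**
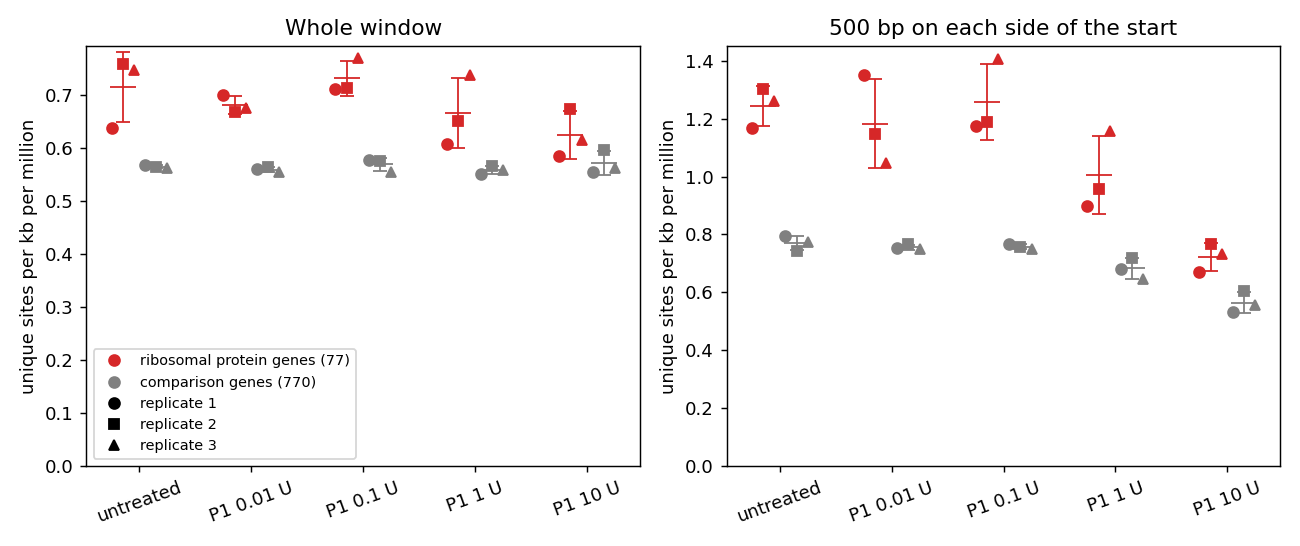
Density of unique sites (per kb and per 1000000 unique sites of the library) in the whole windows (left) and within 500 bp of the start (right), by P1 amount, for 77 ribosomal protein genes (red) and 770 comparison genes (grey). Each symbol is 1 library and bars give the mean and SD of 3 replicates. The members lie above the comparison genes in each library, and near the start both are lowest at 10 U.

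The ratio of members to comparison genes was 1.12, 1.34 and 1.33 in untreated replicates 1 to 3, and 1.249, 1.19 and 1.22 at 0.01 U. It was 1.23, 1.24 and 1.39 at 0.1 U, 1.10, 1.15 and 1.32 at 1 U, and 1.053, 1.13 and 1.09 at 10 U. The ratio was thus above 1 in 15 of 15 libraries, with a geometric mean of 1.21 (exact two-sided sign-flip permutation test, p = 6.1e-05, which is the smallest that 32768 arrangements can give). The libraries share the genes and the genome, so this test covers the spread between libraries only. Against flanks of 10 to 100 kb on both sides of the members, which share their copy number, the ratio was 1.01 to 1.36.

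Low amounts of P1 did not move the members beyond the spread between replicates. With 0.01 and 0.1 U pooled, as the study merges them, the density was 0.990 times that of the untreated samples, with 0.911 to 1.10 in the 3 replicates and 1 of 3 replicates higher (exact permutation test within replicate numbers, p = 0.815). The ratio to the comparison genes changed by a factor of 0.992 (exact permutation test, p = 0.926). The pool includes 0.1 U of replicate 3, with the highest density (0.769) and ratio (1.39) of the 15 libraries. These factors are not given without it. At 10 U the ratio to the comparison genes was 0.882 times that of the other amounts and was lower in 3 of 3 replicates. The exact permutation test gave p = 0.008, the smallest that its arrangements allow, and 0.064 after Benjamini-Hochberg adjustment over the 8 tests of this kind. The difference did not pass the adjusted threshold. A test at this smallest p cannot pass over 8 tests unless another also reaches it, so the adjusted value does not decide the question. With the 2 libraries that stood apart left out, a choice made after the data were seen, the factor was 0.891.

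The surplus of the members was larger near the start of the gene than over the whole window. Within 500 bp of the start of the canonical transcript the members had a density of 1.24 ± 0.069 (SD, n = 3) in the untreated samples, and 1.18 ± 0.15, 1.26 ± 0.13, 1.01 ± 0.14 and 0.723 ± 0.048 with 0.01, 0.1, 1 and 10 U. The comparison genes, whose start zones had a like GC content (57.8% against 57.9%), went from 0.771 ± 0.025 to 0.565 ± 0.037. All 3 members' values at 10 U lay below those of the other 12 libraries, which were 0.899 to 1.41. The ratio of members to comparison genes in the start zone was 1.62 ± 0.14 in the untreated samples and 1.28 ± 0.033 at 10 U. It was 0.815 times that of the other amounts at 10 U and lower in 3 of 3 replicates (exact permutation test, p = 0.024, adjusted p = 0.085 over 8 tests), and 0.994 times that of the untreated samples at 0.01 and 0.1 U (exact permutation test, p = 0.963). The low amounts again include 0.1 U of replicate 3, with the highest start-zone ratio (1.87) of the 15 libraries. With the introns alone, the members' ratio to the comparison genes over the whole gene was 1.12 ± 0.047 in the untreated samples and 1.03 ± 0.0079 at 10 U.

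In steps of 250 bp, the values at the starts turned around just upstream of the start. This bin was singled out after its values were seen, so it is described with no test. Between 250 bp before the start and the start, the members held 83, 65 and 81 sites in the untreated replicates, 95, 79 and 57 at 0.01 U, 78, 71 and 88 at 0.1 U, 50, 45 and 28 at 1 U, and 17, 26 and 14 at 10 U. As a density this was 1.52 ± 0.38 (SD, n = 3) untreated, 0.956 ± 0.24 at 1 U and 0.350 ± 0.058 at 10 U, and the 10 U libraries lay below all other 12. The comparison genes went from 0.825 ± 0.029 to 0.464 ± 0.037, so that the members were above them by 1.07 to 2.18 times in the other 12 libraries and below them, at 0.596 to 0.878, in the 3 libraries of 10 U. The bin from 250 bp to 500 bp downstream of the start differed less, with 1.10 ± 0.24 untreated and 1.04 ± 0.089 at 10 U.

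**Figure D2:**
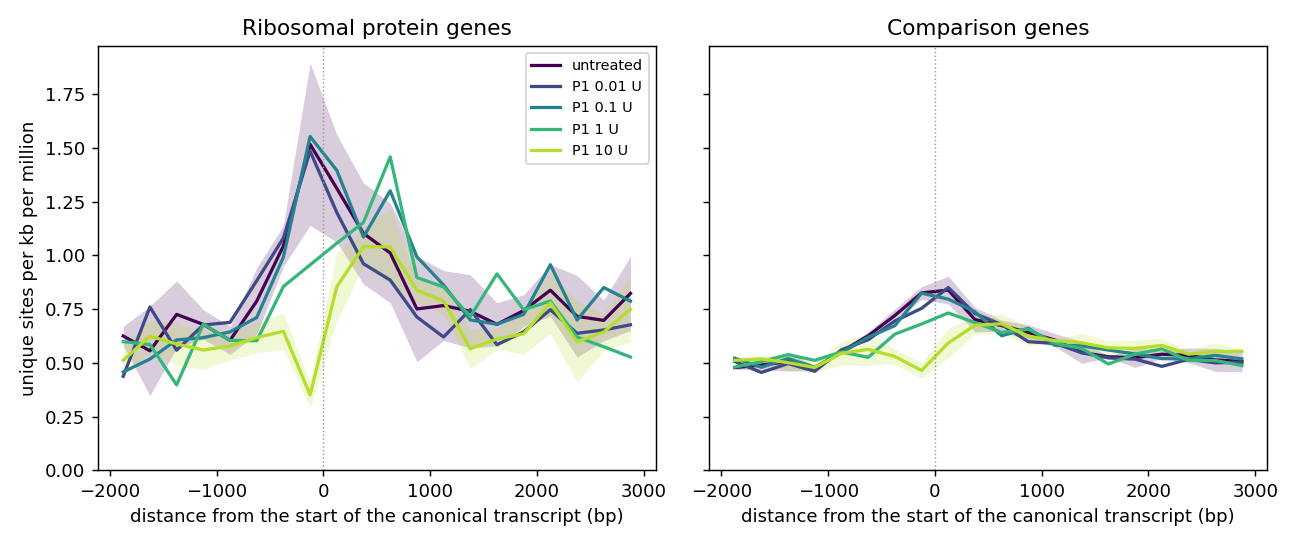
Density of unique sites (per kb and per 1000000 sites, both strands) in bins of 250 bp by distance from the start of the canonical transcript (bp), for the ribosomal protein genes (left) and the comparison genes (right). Lines are means of 3 replicates for each P1 amount and shading is the SD for untreated and 10 U. The members peak just upstream of the start at up to 0.1 U and have their lowest value there at 10 U.

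Among the members, the sites of the bin just upstream of the start came from many genes. Of the 77 genes, 75 had a site in this bin in the 12 libraries without 10 U and 35 in the 3 libraries of 10 U. These sets differ in size. Per library, a mean of 47.0 members had a site untreated and 14.3 at 10 U. Per 1000000 unique sites, 71 members were lower at 10 U and 4 were higher. The bin was chosen by its values and held 57 sites of all members at 10 U, so these counts are a description. Comparison genes were not counted in this way, but their pooled density at 10 U was also lower, at 0.599 times that of the other libraries. RPL5 held 27 sites in the 12 libraries and 0 at 10 U, where the 3 libraries held 8316824 unique sites against 30896206 in the 12. RPL27A had 24 sites against 3, RPL37 22 against 1 and RPL10A 21 against 2. RPL5 binds the 5S rRNA and, when free, holds the ubiquitin ligase MDM2, and RPL27A, RPL37 and RPL10A are proteins of the large subunit.

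The same bin was low at 10 U in other gene groups. The 10 U density over that of the other 12 libraries, pooled, was 0.258 in the members, 0.280 in 78 genes of the mitochondrial ribosomal proteins, 0.221 in 22 genes of the terminal oligopyrimidine class and translation factors, 0.432 in 20 other highly expressed short genes and 0.599 in the comparison genes. A lower level upstream of the start at 10 U was thus seen in these lists too, and differences between lists were not tested. Over the whole window these lists did not share the surplus, with mean ratios to the comparison genes over 15 libraries of 0.82 for the mitochondrial ribosomal proteins, 0.71 for the terminal oligopyrimidine class and 0.90 for the highly expressed genes, against 1.21 for the members. The comparison genes were paired to the members in length and GC content and not to these lists, so these whole-window ratios are a description. In the start zone their ratios were 1.45, 1.36 and 1.201, against 1.52.

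Between the subunits the whole-window ratio was 1.17 ± 0.10 (SD over 15 libraries) for the large and 1.27 ± 0.11 for the small subunit. In the start zone the order was the other way, with 1.60 ± 0.29 and 1.40 ± 0.15. The 29 members with a small nucleolar RNA gene inside had a whole-window ratio of 1.27 ± 0.13 and the 48 without one 1.18 ± 0.094. These differences were not tested.

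Single members varied more than the sum, with a density over the 15 libraries together of 0 to 1.79 and a median of 0.761. The density was above the median of the 10 comparison genes in 66 of 77 members. RPL10A was highest with 203 sites and a density of 1.79, where the median of its comparison genes was 0.616. Its libraries held 6 to 35 sites, with the most in 0.1 U of replicate 3. RPL8 and RPL23A, of the large subunit, followed with 1.34 and 1.29, and RPS21, of the small subunit, was also among the 5 highest with 1.18. The lowest values above 0 were 0.350 in RPL37A, 0.389 in RPL21 and 0.390 in RPL24, all of the large subunit. Over the 75 members with sites the density went with GC content (Spearman rho 0.79) and against window length (rho -0.47), as a description across genes that share the same libraries.

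**Figure D3:**
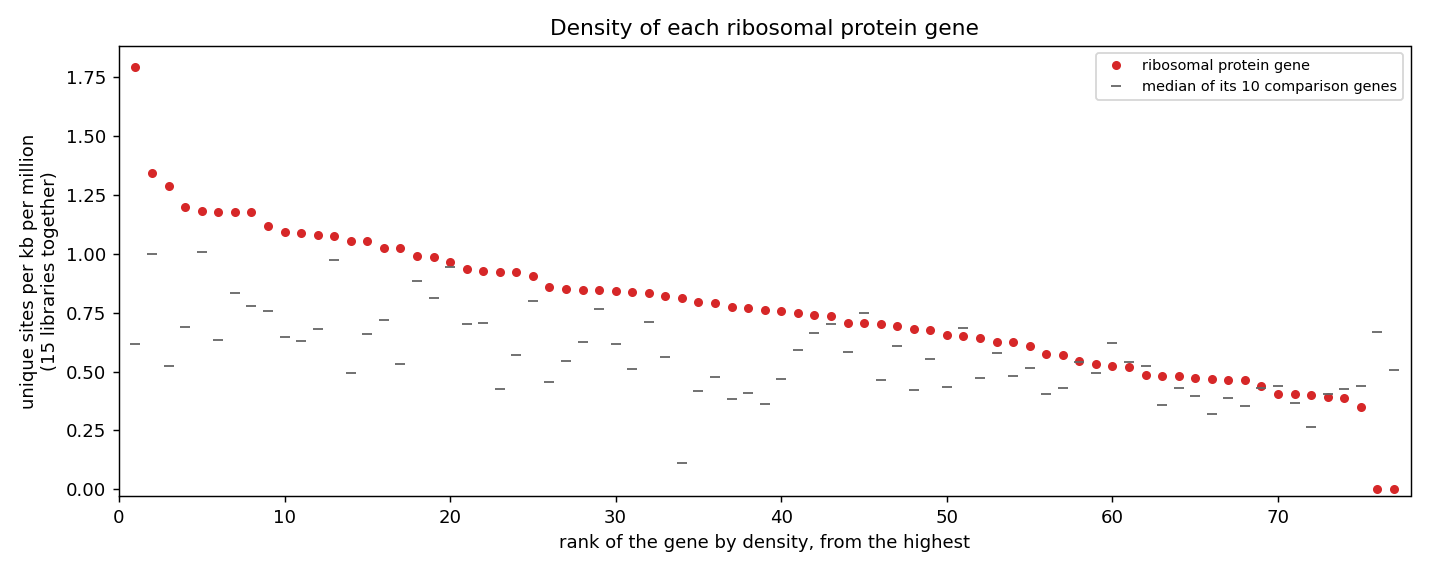
Density of unique sites (per kb and per 1000000 sites, 15 libraries together) of the 77 ribosomal protein genes by rank, in falling order (red points), with the median of the 10 comparison genes of each (grey dashes). In 66 genes the point lies above its dash, and 2 genes lie at 0.

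RPS18, of the small subunit, held no site in any of the 15 libraries. At the median density of the members its window would hold 147 sites. On both sides of RPS18, on chromosome 6, 180000 bp of flanks held only 4 sites over all libraries. The ends come from reads mapped to a single place, and how well reads can be placed at this gene was not tested.

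Genes known from the anaemia and from the loss on chromosome 5 were spread over the range of the members. RPS19, the gene most often mutated in the anaemia, had a density of 1.03 with 26 to 59 sites per library. RPS24 had 1.03, RPS10 0.820, RPS26 0.769, RPL11 0.761, RPS14 0.748, RPL35A 0.626, RPL5 0.573 and RPS7 0.534. RPS24, RPS10, RPS26, RPS14 and RPS7 are proteins of the small subunit, and RPL11 joins RPL5 on the 5S rRNA. The stalk genes, whose products recruit the elongation factors to the ribosome, lay close together, with 0.851 in RPLP0, 0.858 in RPLP1 and 0.814 in RPLP2. RPL5 held 29, 23 and 14 sites untreated and 8, 13 and 11 at 10 U, as counts not scaled to the library. It was not called at 10 U (adjusted p = 0.165 in edgeR).

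Gene by gene, no member passed the test at any amount. In edgeR's quasi-likelihood test over 19101 genes, 75 members were tested and 0 were called with 0.01, 0.1, 1 or 10 U (Benjamini-Hochberg adjusted p below 0.05), where 0.0%, 0.0157%, 0.00524% and 0.115% of all genes tested were called. At an unadjusted p below 0.05 the members numbered 5, 5, 4 and 10, or 6.67%, 6.67%, 5.33% and 13.3% of those tested, where 4.76%, 4.79%, 5.69% and 9.71% of all genes tested lay below it. DESeq2 called 0 of the 19101 genes at any amount, so its 0 members say nothing about the members in particular. At 10 U, 1 of these 10 was higher (RPL15) and 9 were lower. The median log2 fold change of the 75 members at 10 U was -0.30, with 23 members above 0, while that of all genes tested was near 0. The lowest adjusted p-values belonged to RPL5 (log2 fold change -1.07, adjusted p = 0.165 in edgeR) and RPL30 (log2 fold change -0.78, adjusted p = 0.194 in edgeR), both proteins of the large subunit and both chosen for this after their values were seen. The median member held 170 sites over the 15 libraries together, so that small changes of single genes were not detectable at this depth.

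The strand that carried the end was told from the files. Among 936055 sites of chromosome 20, none had more than 8 T in the 20 bases before the mapped end on the strand given in the files, whereas 6.28% had more than 8 T in the 20 bases after it. The limit on T was set by the authors and is read on the strand of the sequenced product, so the broken strand was taken as the opposite one. The ratio of ends on the template strand to ends on the non-template strand of the members was 1.08, 1.09 and 1.12 in the untreated replicates. It was 0.995, 1.052 and 0.984 at 0.01 U, 1.054, 0.980 and 0.776 at 0.1 U, 0.9504, 1.03 and 0.854 at 1 U, and 0.964, 1.00 and 0.990 at 10 U. The untreated values were above all others. Pooled, 0.01 and 0.1 U gave 0.881 times the untreated ratio, lower in 3 of 3 replicates, which did not pass (exact permutation test, p = 0.074, adjusted p = 0.148 over 8 tests; without the 2 libraries that stood apart the factor was 0.917). Positions within the T limit were themselves uneven between the strands, with a ratio of 0.968.

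The 2 lowest ratios came from ends in exons on the non-template strand, which reads as the mRNA. Over all exons of the members the density on this strand was 0.657 at 0.1 U of replicate 3 and 0.621 at 1 U of replicate 3, against 0.333 to 0.440 in the other 13 libraries. On the template strand both libraries lay within the range of the others (0.382 and 0.438 against 0.314 to 0.561), and so they did in the introns of the template strand (0.291 and 0.281 against 0.261 to 0.317). The libraries were singled out after their values were seen, so no test was made. The surplus lay in the first exons. In exon 2 of the canonical transcripts the 2 libraries had 3.99 and 4.91 on the non-template strand, against 0.0951 to 0.822 in the others. In exon 1 they had 2.46 and 2.25 against 0.0668 to 1.28, and in exon 3 2.71 and 2.75 against 0.241 to 1.246. In later exons before the last they had 0.733 and 0.684, within the range of the other libraries, and in the introns of the canonical transcripts 0.333 and 0.319 against 0.310 to 0.381.

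**Figure D4:**
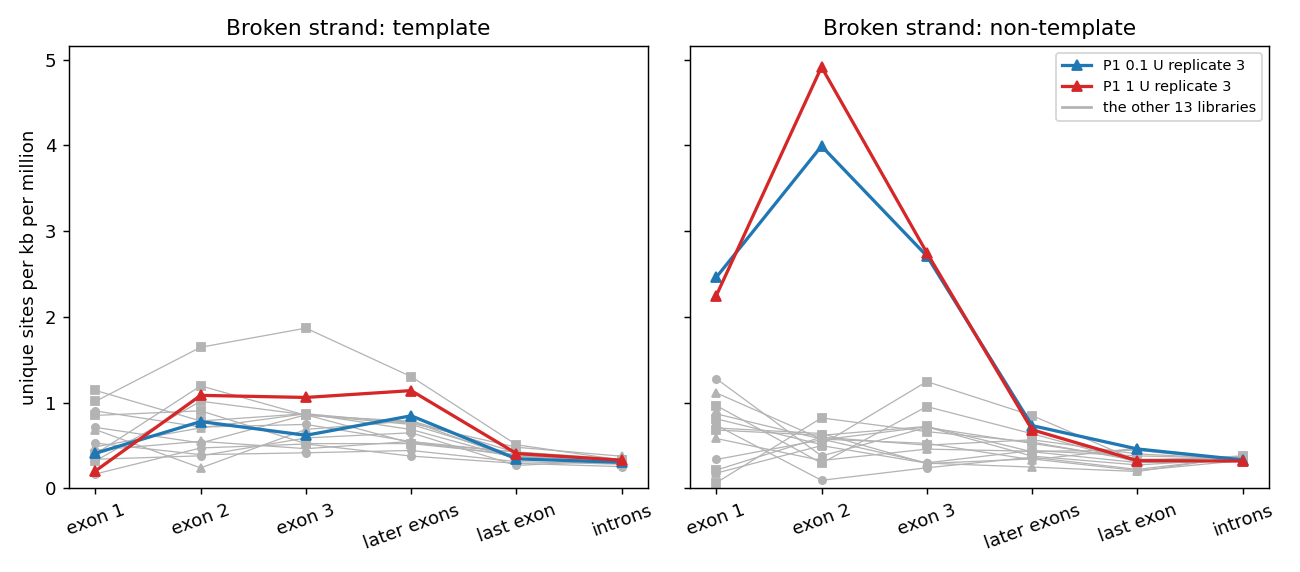
Density of unique sites (per kb and per 1000000 sites) of the ribosomal protein genes by part of the canonical transcript, for ends on the template strand (left) and on the non-template strand (right). Each line is 1 library and symbols give the replicate (circle 1, square 2, triangle 3). On the non-template strand 2 libraries of replicate 3 rise to 3.99 and 4.91 in exon 2, and in the introns all libraries lie together.

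The ends of these libraries stopped at the exon border. Around the 3′ ends of internal exons, the last 50 exon bases held 217 non-template ends in the 2 libraries and the next 50 intron bases held 39, a ratio of 5.56. In the other 13 libraries the numbers were 248 and 185, a ratio of 1.34. Per 1000000 unique sites, the exons of 56 of 77 members held more non-template ends at 0.1 U of replicate 3 than over the other 13 libraries, those of 46 members at 1 U of replicate 3, and those of 39 in both. These counts of members were not made for the comparison genes or for single other libraries. Of 430 canonical exons, 10 in 10 different genes held at least 5 such ends in each of the 2 libraries. At least 5 in any 1 of the other 13 libraries were held by 8 exons. Exon 2 of RPS3, a protein of the small subunit at the mRNA entry, held 17 and 13 ends against 5 in the other 13 libraries together. Exon 3 of RPS9 held 17 and 10 against 3, exon 1 of RPLP1 15 and 10 against 4, exon 3 of RPL30 15 and 6 against 5 and exon 2 of RPS14 11 and 6 against 1. Exon 3 of RPS19 held 6 and 7 against 3.

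Coding exons of RPS3 and RPS19 are shown to place these ends. They are given as the non-template strand of hg19, 5′ to 3′, with capitals at each base that was the last of a broken strand in either of the 2 libraries. Exon 2 of RPS3 spans chr11:75111738-75111868 and exon 3 of RPS19 spans chr19:42365181-42365281, both on the plus strand.
RPS3: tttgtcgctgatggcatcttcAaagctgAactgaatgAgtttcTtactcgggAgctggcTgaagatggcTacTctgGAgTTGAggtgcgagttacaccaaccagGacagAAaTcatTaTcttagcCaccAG
RPS19: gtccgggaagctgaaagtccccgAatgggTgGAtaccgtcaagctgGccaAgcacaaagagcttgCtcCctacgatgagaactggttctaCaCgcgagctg
In RPS3 the ends fell on 23 bases, 7 of them in both libraries, and reached the last bases of the exon. In RPS19 they fell on 10 bases, 3 of them in both.

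**Figure D5:**
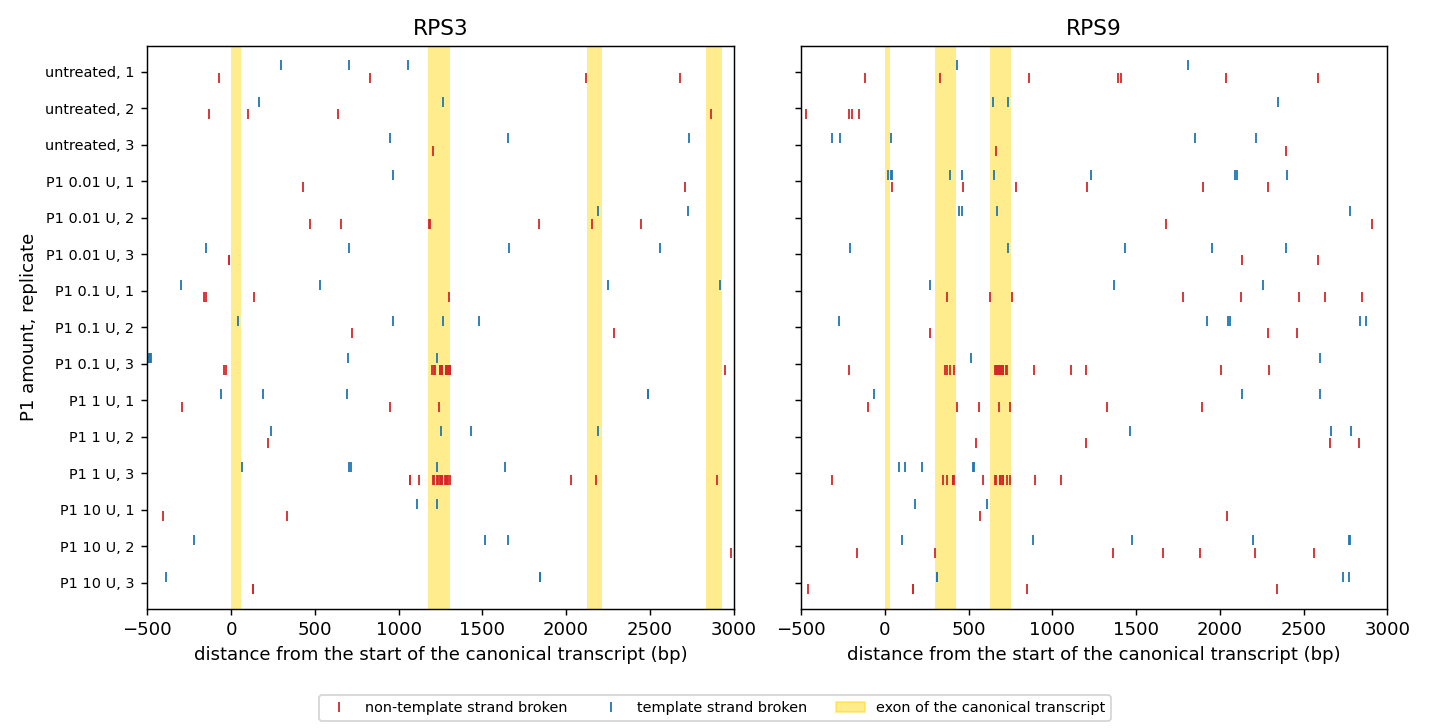
Mapped ends in RPS3 and RPS9 by distance from the start of the canonical transcript (bp), with 1 row for each of the 15 libraries. Red marks are ends on the non-template strand, blue marks are ends on the template strand and yellow bands are exons. In the rows of 0.1 U and 1 U of replicate 3 the red marks crowd within exons, 17 and 13 of them in exon 2 of RPS3.

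Other highly expressed genes also stood apart in the same libraries. The 20 other highly expressed short genes had 2.86 and 2.08 on the non-template strand of exon 2 in the 2 libraries, against 0.128 to 0.736 in the others, and the 22 genes of the terminal oligopyrimidine class 1.12 and 1.08 against 0 to 0.517. The mitochondrial ribosomal proteins, with 0.200 and 0.277, lay within the 0.127 to 0.465 of the others, and the comparison genes had 0.292 and 0.317 against 0.258 to 0.313. Untreated replicate 2 stood apart on the other strand, with 1.65 in exon 2 and 1.87 in exon 3 of the members on the template strand, where the other 12 libraries outside this pair reached 1.196 and 0.872. The part of RNA or of its copies in these ends was not tested.

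The study's region lists come from SICER, a caller of enriched stretches, run on each treated sample with the same-numbered untreated one as control. A region overlapped the window of 4 members in at least 2 of 3 lists for 0.01 and for 0.1 U, and of 6 members for 1 and for 10 U, or 5.19%, 5.19%, 7.79% and 7.79% of the members. Over all protein-coding genes the percentages were 12.3%, 12.4%, 12.3% and 28.5%, and over the comparison genes 2.08%, 2.86%, 1.69% and 7.14%. The windows of all genes are longer, so the members are to be read beside the comparison genes. With a region in at least 1 of 3 lists the members numbered 19, 25, 31 and 28, or 24.7%, 32.5%, 40.3% and 36.4%, against 36.1%, 35.9%, 36.5% and 55.1% of all genes and 14.8%, 14.5%, 13.5% and 30.4% of the comparison genes. With an FDR of 1e-05 the count at 0.01 U was 2 members or 2.60%, against 10.1% of all genes and 1.56% of the comparison genes. At 0.1, 1 and 10 U it was 3, 5 and 5 members, or 3.90%, 6.49% and 6.49%. Of all genes 10.5%, 10.9% and 26.5% had such a region, and of the comparison genes 2.47%, 1.43% and 5.84%. The 4 members at 0.01 U were RPL27A, RPL37, RPS9 and RPS25, the 4 at 0.1 U RPL10A, RPL27A, RPS19 and RPS24. In single lists the members with a region numbered 19 at 0.1 U of replicate 3 and 25 at 1 U of replicate 3, against 4 to 18 in the other 10 lists, with 40 and 43 of the comparison genes against 24 to 155. Left without replicate 3, the count in both remaining lists was 0 at 0.1 U and 1 at 1 U. Asking for both lists is stricter for any gene, and the shares of all genes and of the comparison genes under this rule are not given.

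RPL27A had a region in 8 of 12 lists, RPS24 and RPS9 in 7, RPL10 in 6, RPL37 and RPL37A in 5, RPL10A, RPL36 and RPS19 in 4 and RPL15 in 3. RPS9, RPL37A, RPL27A and RPS24 are also the members with the most sites (947 to 1411 each). The counts of lists cover the whole annotated windows, which span 32472 bp in RPL27A and 17429 bp in RPL36. In RPL27A, regions at -198 and -38 bp lay near the canonical start. Its other regions lay 17532 to 29572 bp past this start, beyond the canonical transcript. All regions of RPL36 lay before its canonical start, the nearest at -2325 bp. In 6 of these 10 genes, RPS9, RPS19, RPS24, RPL10A, RPL37 and RPL37A, a region of 0.1 U of replicate 3 overlapped one of 1 U of replicate 3 in an exon of the canonical transcript. In exon 3 of RPS9 these regions held 17 treated against 1 control sites and 10 against 1, and in RPS19 they held 6 against 0 and 9 against 0. In RPL37 a region overlapping them was also listed at 0.01 U of replicate 2 and at 1 U of replicate 2.

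An intron of RPS24 was the place where all 3 lists of 10 U had a region. It is shown because it is the only such place found in the 10 members with regions in the most lists, and lies at chr10:79796561-79796630 of hg19, outside the exons of all annotated transcripts of the gene. The sequence is that of the plus strand, which is the non-template strand, and capitals mark the 12 positions with an end at 10 U.
RPS24: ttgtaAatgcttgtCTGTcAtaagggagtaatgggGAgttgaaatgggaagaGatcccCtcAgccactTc
The stretch held 5, 4 and 4 sites in the 3 libraries of 10 U and 0 or 1 in each of the other 12. All sites of 10 U were on the plus strand. The groups did not overlap, but the place was chosen by these values, so that they are a description.

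The last base of the broken strand was mostly C or G. In the windows of the members C made up 43.5 ± 1.6% (SD, n = 3) of the ends in the untreated samples and 40.9 ± 0.96% at 10 U, and G 34.6 ± 3.6% and 36.2 ± 0.81%. A and T made up 11.4 ± 2.3% and 10.4 ± 2.0% in the untreated samples, although each is 26.1% of the bases of the windows. These shares were taken in the members only, so they are not shown to be particular to them. The method adds a tail of A to the ends and trims it from the reads, and its part in the shares was not tested.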

How the data were processed

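Crosslinked nuclei of K562 cells were profiled in 15 samples, which were grouped by the P1 amount and replicate number in their titles. The authors aligned tailed reads to hg19 with BWA 0.7.12, kept uniquely mapped ends, left out those with over 8 T in the 20 bases upstream, and deposited the count of ends per position and strand. Each position and strand was taken as 1 site, so that repeated reads of an end, by PCR or not, count once. The deposited region lists, called with SICER 1.1, give counts of treated and control sites, the fold or ratio of treated over control sites, and p-values, at an FDR of 0.01 set by the authors. Mitochondrial files and lists of clustered sites were not used.

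Genes of GENCODE 44 lifted to hg19 were counted on chromosomes 1 to 22 and X with sequence from the GRCh37 primary assembly. Densities are unique sites per kb and per 1000000 unique sites on these chromosomes. The comparison genes are the nearest in log10 length and GC content, drawn without replacement. Sums were compared with exact two-sided permutation tests of mean log2 values, exchanging samples within replicate numbers (27 arrangements for 0.01 and 0.1 U against untreated, with a smallest p of 0.037) and adjusted by Benjamini-Hochberg over 8 tests. Factors are geometric means over replicates. Genes with at least 30 sites were tested with edgeR 4.0.16 (TMM, replicate number as block) and, as an alternative, DESeq2 1.42.0. The tests were run on simulated data with known changes. Precision rests on 2046116 to 3859475 sites per sample and on 3 replicates.

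The members, lists, tests and alternatives were chosen with earlier results of these data known. Named genes are the 5 densest and 5 least dense members, called members, up to 10 members with regions in the most lists, the stalk genes and the genes of the anaemia and of the loss on chromosome 5; others were named after their values were seen. Some genes and sequences that this rule takes are not reported here.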

Additional observations from a re-analysis of the deposited data

How the results depend on the processing

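No member was called at any amount under any alternative run. Calls were few over all genes too. At 10 U they went from 0 of 19101 genes (DESeq2) to 20 higher and 41 lower of 19170 (all ends counted). The members' level over the comparison genes stayed above 1, between 1.08 (introns only) and 1.37 (canonical transcript span), and at 1.18 to 1.24 with 1 replicate left out. The factors of 10 U against the other amounts kept their direction for the density, the ratio to comparison genes and the start zone. With the canonical span the first 2 were 0.839 and 0.827 (both adjusted p = 0.048, exact permutation test). The start zone was not tested with this span, so that adjustment ran over fewer than 8 tests. These adjusted values are thus not comparable with those of the main run. With flanks as denominator the ratio (0.851) and the start zone (0.590, adjusted p = 0.032, exact permutation test) passed. In introns only, the density factor was 0.982 and the ratio factor 0.942. Factors near 1 changed side. For low P1 these were the density with at least 2 ends a site (1.01), in introns (1.01) and with all loci of the name rule (1.0008), the ratio with all loci (1.002) and the start zone with at least 2 ends (1.11). The strand ratio at 10 U was 1.01 with all ends counted, 1.03 with at least 2 ends, 1.01 with all loci and 1.04 without the 5 members with the most sites. With 1 replicate left out the low P1 factors ranged from 0.937 to 1.03 (density), 0.940 to 1.04 (ratio), 0.934 to 1.06 (start zone) and 0.850 to 0.938 (strand ratio). The 10 U factors ranged from 0.862 to 0.924, 0.864 to 0.907, 0.809 to 0.827 and 0.957 to 1.02. Without the 2 libraries that stood apart, an alternative chosen after seeing the data, the factors of 10 U were 0.904, 0.891, 0.842 and 0.951. Counts of members with regions at an FDR of 1e-05 were 2 at 0.01 U (2.60%, against 10.1% of all genes) and 3, 5 and 5 at 0.1, 1 and 10 U. The latter were 3.90%, 6.49% and 6.49%, against 10.5%, 10.9% and 26.5% of all genes. With at least 1 of 3 lists they were 19, 25, 31 and 28, or 24.7%, 32.5%, 40.3% and 36.4%. Of all genes 36.1%, 35.9%, 36.5% and 55.1% had such a region, and of the comparison genes 14.8%, 14.5%, 13.5% and 30.4%. Without 1 replicate, members with a region in both remaining lists numbered 1 to 3, 0 to 2, 1 to 5 and 2 to 4. This rule is stricter for any gene, and shares over all genes under it are not given. Over all gene windows, deviations of same-numbered samples had correlations of -0.034 to 0.020, against -0.059 to 0.055 between other numbers. Counting error in windows with few sites keeps such correlations near 0, so they cannot tell what same-numbered samples share. The 2 libraries that stood apart are both of replicate 3. Each amount has 1 sample of each replicate number, so leaving out the replicate block cannot change the factors. They were 0.990 and 0.895 for the density, 0.992 and 0.882 for the ratio, 0.994 and 0.815 for the start zone and 0.881 and 0.993 for the strand ratio. In edgeR without the block 0 members were called, where 8 genes were higher and 4 lower of 19101 at 10 U.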
